A study of Mus musculus with 13 samples.

Results

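Aerocytes are the gas-exchange endothelial cells of the alveolar capillary. To describe how their genes respond to oxygen, 10 marker genes were read by symbol from a table of 32544 gene symbols, leaving out the apelin and KIT ligands that these cells also make. The members are Car4, Tbx2, Fibin, Prx, Emcn, Chst1, Nrp2, Clec1a, Rprml and the pseudogene Cyp4b1-ps2. The data are 3' mRNA-seq (Quant-seq) libraries of whole lung from wild-type male C57BL/6J mice, bought at 7 weeks of age. The mice were kept for 5 days either at 21% oxygen (normoxia, n = 7 libraries) or at 80% oxygen (hyperoxia, n = 6 libraries). The lungs were perfused and frozen, no cells were sorted, and every mouse carried the same genotype. All 10 symbols were present in the table, and 8 had enough counts to be tested.

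The alveolar capillary holds a pair of endothelial cell types. Aerocytes are large, thin cells spread over several alveoli, where gases cross from air to blood, whereas general capillary cells are smaller, divide after injury and can give rise to aerocytes. In whole lung a lower level of a marker can come from fewer cells of the type or from less RNA in each cell, and these cannot be told apart here.

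The libraries held between 1607111 and 4540288 counts. Levels are given as CPM, the counts of a gene scaled to a common library total, after TMM scaling, a correction for the overall composition of each library, and a count of 3, taken as the floor, corresponded to at most 1.87 CPM. Hyperoxia replicate 1 stood apart, with a mean correlation to the other libraries of 0.779, against 0.886 to 0.919 for the remaining 12. The library names fall into letters B to M (5 normoxic and 3 hyperoxic) and O to S (2 normoxic and 3 hyperoxic). What these letters mark is not given in the sources used here. The lung label was borne out by its markers, with Sftpc at 9637 CPM, Scgb1a1 at 33862 CPM and Ager at 604 CPM in normoxia. Among genes that define aerocytes, Car4 and Ednrb stood at 93.7 and 62.4 CPM in normoxia, and only Rprml had no count in any library.

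The aerocyte markers did not move together in hyperoxia. Fibin, Clec1a and Car4 fell, Prx rose, and Tbx2, Chst1, Nrp2 and Emcn did not pass an adjusted p of 0.05 (edgeR quasi-likelihood test with Benjamini-Hochberg adjustment over 12496 genes). Thus 3 of the 8 tested members were lower, where 10.8% of all genes tested were, and 1 was higher, where 11.8% of all genes were. The count of lower members was 2 without normoxia replicates 1, 2, 3 or 5 or hyperoxia replicates 3 or 4, each left out in turn, since Car4 then missed the threshold. With a log2 fold change at or under -1.5 required as well, 1 member remained, Fibin, against 2.35% of all genes. Both Fibin and Clec1a were lower in every hyperoxic library than in any normoxic library, a pattern of 5.23% of all genes, and Prx was higher in every one, a pattern of 5.6%. The median log2 fold change of the 8 members was -0.26, beside -0.03 for all genes tested. It was -0.50 without hyperoxia replicate 1. Scaling the libraries to pan-endothelial genes moved both medians up, to 0.027 for the members and 0.27 for all genes.

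**Figure D1:**
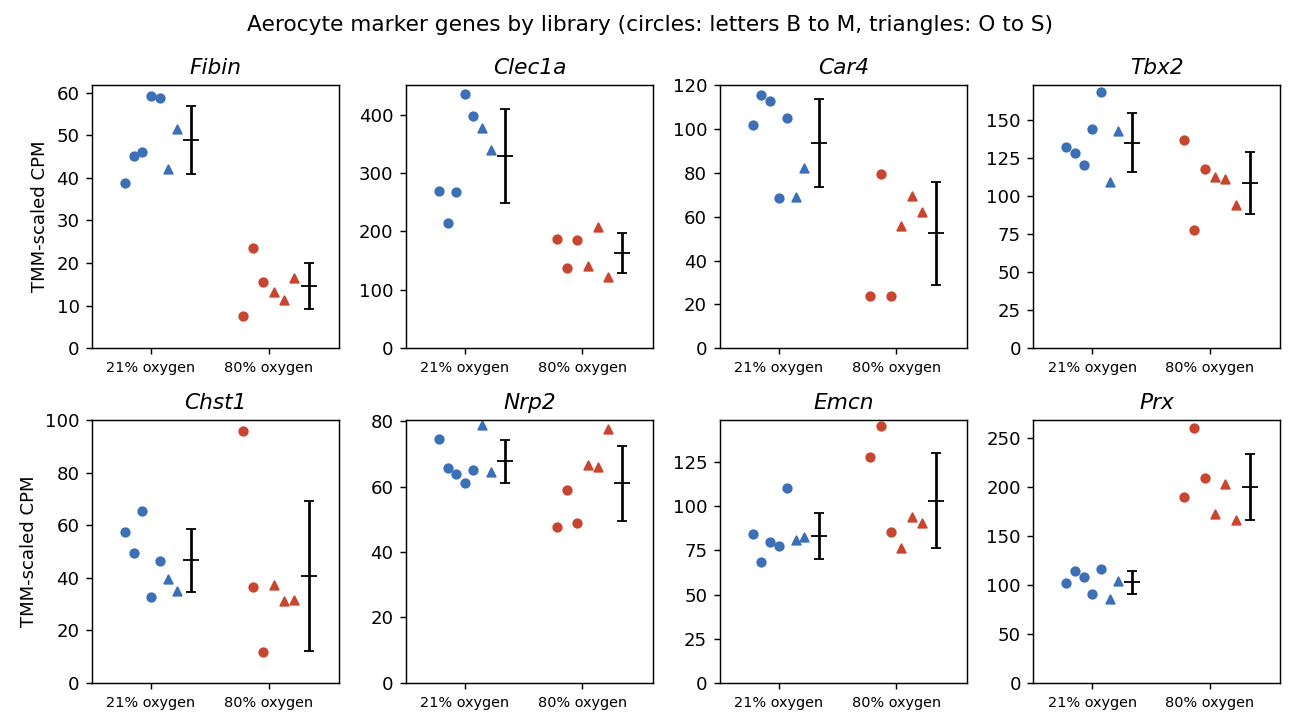
Level of each tested member in TMM-scaled CPM (vertical axis, from 0) in each library at 21% and 80% oxygen. Points are libraries, circles for letters B to M and triangles for O to S, and black marks give the mean and SD of 7 normoxic and 6 hyperoxic libraries. Fibin and Clec1a are lower and Prx higher without overlap, and 2 hyperoxic libraries have Car4 at 23.6 CPM.

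To show the start regions of the members that changed, the RefSeq promoter windows (GRCm38.p6, 250 bases before to 50 after the annotated start) of Car4, Fibin and Prx are printed 5′ to 3′. The RefSeq table held a window for 7 members, and Clec1a, Tbx2 and Cyp4b1-ps2 were without one. Capitals mark GGAAG, a core that ETS factors of endothelial cells bind, or its reverse complement, and TATAAA, the letters of the TATA box, which in the Car4 window lie after the annotated start.
Car4, chr11:84957504-84957803, strand +: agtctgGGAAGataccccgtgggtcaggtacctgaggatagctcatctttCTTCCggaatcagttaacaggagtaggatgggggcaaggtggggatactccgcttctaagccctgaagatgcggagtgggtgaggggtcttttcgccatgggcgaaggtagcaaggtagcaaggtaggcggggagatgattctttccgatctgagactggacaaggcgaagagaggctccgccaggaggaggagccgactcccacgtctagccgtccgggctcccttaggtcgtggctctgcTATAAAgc
Fibin, chr2:110362944-110363243, strand -: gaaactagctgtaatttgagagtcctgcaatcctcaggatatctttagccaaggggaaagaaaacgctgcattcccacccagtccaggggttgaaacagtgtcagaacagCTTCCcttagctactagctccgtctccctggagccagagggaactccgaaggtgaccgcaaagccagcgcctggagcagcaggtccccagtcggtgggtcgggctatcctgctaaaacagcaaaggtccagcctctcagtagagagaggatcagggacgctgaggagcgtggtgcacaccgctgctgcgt
Prx, chr7:27499074-27499373, strand +: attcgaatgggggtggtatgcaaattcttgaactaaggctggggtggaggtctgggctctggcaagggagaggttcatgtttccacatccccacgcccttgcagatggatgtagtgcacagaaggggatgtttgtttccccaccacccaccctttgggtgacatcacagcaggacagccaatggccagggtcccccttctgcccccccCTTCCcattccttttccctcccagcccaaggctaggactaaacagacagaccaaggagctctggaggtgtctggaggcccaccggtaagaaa
The letters GGAAG occurred 2 times in the Car4 window and 1 time each in those of Fibin and Prx, on either strand. This is a common match, found in 71.4% of the 32851 promoter windows of the table. The letters TATAAA were in the Car4 window, as in 13.6% of all windows, and in no window of the other members. The T-box letters GGTGTGA, which bear on Tbx2 as the only transcription factor of the set, were found in 1 of the 7 windows, that of Nrp2, against 3.98% of all windows. The letters GATAA were present in the Emcn window alone, as in 25.4% of all windows, and ACAATG, a SOX core, was absent from all 7, against 12.6%. The GC content was 57.3% for Car4, 56.3% for Fibin and 56.7% for Prx, beside a median of 52.7% over all windows.

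Fibin encodes a secreted protein first described in the fin bud. It lies on chromosome 2 of GRCm38 (110360917 to 110363183, minus strand) and overlaps no other annotated gene. Its level was between 38.8 and 59.2 CPM in normoxia, with a median of 46.1, and between 7.51 and 23.4 CPM in hyperoxia, with a median of 14.4. The groups did not overlap, and the lowest value was that of hyperoxia replicate 1. Mean levels were 48.8 ± 7.97 CPM (SD, n = 7) and 14.6 ± 5.40 CPM (SD, n = 6), a 3.32-fold decrease (log2 fold change -1.73 ± 0.22 SE, edgeR adjusted p = 5.3e-05). This was the largest change of the set, and 1.6% of all genes tested had a log2 fold change as low or lower. Inside letters B to M the mean log2 CPM differed by -1.75, and inside O to S by -1.74.

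Clec1a, a C-type lectin receptor of endothelial and myeloid cells that recognizes fungal melanin, was the member with the most counts. The gene spans 129424772 to 129452000 of chromosome 6, on the minus strand. In normoxia it ranged from 215 to 436 CPM with a median of 340, and in hyperoxia from 122 to 207 CPM with a median of 164. The lowest normoxic library, replicate 2, was just above the highest hyperoxic library, replicate 5. Means of 329 ± 80.7 CPM (SD, n = 7) and 163 ± 34.4 CPM (SD, n = 6) made Clec1a 2.01-fold lower (log2 fold change -1.01 ± 0.19 SE, edgeR adjusted p = 0.00120). The decrease was -0.86 within letters B to M and -1.23 within O to S, as differences in mean log2 CPM.

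Car4 encodes carbonic anhydrase 4, a membrane-anchored enzyme on the luminal face of the capillary that interconverts carbon dioxide and bicarbonate, and it gives its name to the Car4-high endothelial cells of mouse lung. It lies on chromosome 11 from 84957786 to 84966044, on the plus strand, without an overlapping gene. Normoxic libraries held 68.6 to 116 CPM, with a median of 102, and hyperoxic libraries 23.6 to 79.4 CPM, with a median of 59.2. All 6 hyperoxic libraries were below the normoxic median, and 4 were below the lowest normoxic library. Averages of 93.7 ± 20.1 CPM (SD, n = 7) and 52.4 ± 23.6 CPM (SD, n = 6) correspond to a 1.78-fold lower level (log2 fold change -0.83 ± 0.27 SE, edgeR adjusted p = 0.0381).

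The fall of Car4 was close to the threshold and uneven among libraries. Hyperoxia replicates 1 and 3 stood at 23.6 CPM each, whereas the other hyperoxic libraries were at 56.0 to 79.4 CPM. Inside letters B to M, to which both belong, the mean log2 CPM differed by -1.47, and inside O to S by -0.27, with 62.7 CPM in hyperoxia against 75.6 CPM in normoxia. With the letter set as a term the log2 fold change was -0.86 with an adjusted p of 0.0531 (edgeR), and without hyperoxia replicate 3 it was -0.66 with an adjusted p of 0.0610. It passed in 7 of the 13 fits with 1 library left out, among them that without hyperoxia replicate 1 (-0.67, edgeR adjusted p = 0.0398), and missed the threshold without normoxia replicates 1, 2, 3 or 5 or hyperoxia replicate 4 as well (edgeR adjusted p = 0.0564 to 0.0736). Replicates 1 and 3 were the 2 lowest hyperoxic libraries for Car4 and Nrp2 among the 8 members, for 19.4% of all genes tested and for 10 of the 21 pan-endothelial genes tested. The part of this in the Car4 result was not tested.

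Prx encodes periaxin, a PDZ-domain scaffold best known from the myelin sheath of Schwann cells and also present in lung capillary endothelium. It spans 27499324 to 27520214 of chromosome 7, on the plus strand, and overlaps the antisense gene Gm15541, so that its counts are uncertain to that extent, the use of strand in counting being not stated. Its level was 85.0 to 116 CPM in normoxia, with a median of 104, and 166 to 260 CPM in hyperoxia, with a median of 196. Each hyperoxic library was above all 7 normoxic libraries. The mean of 103 ± 11.6 CPM (SD, n = 7) rose 1.95-fold to 199.8 ± 33.7 CPM (SD, n = 6), with a log2 fold change of 0.96 ± 0.13 SE (edgeR adjusted p = 1.2e-04). The increase was 1.04 within letters B to M and 0.93 within O to S.
Because Prx also marks Schwann cells, genes of that cell type were examined. Sox10 and Cdh19, which help to define it, were under 1 CPM in both groups on average, and Mbp, a myelin gene, was at 23.7 and 24.4 CPM (log2 fold change 0.03, edgeR adjusted p = 0.937). The part of these cells in the Prx result was not tested.

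Emcn encodes endomucin, a sialoglycoprotein on the luminal surface of capillaries and veins that limits leukocyte adhesion. The gene (chromosome 3, 137341067 to 137432185, plus strand) was at 68.1 to 110 CPM in normoxia and 76.2 to 145 CPM in hyperoxia, with medians of 80.8 and 92.4 CPM. The groups overlapped, with 2 hyperoxic libraries, replicates 1 and 2, above all normoxic ones. The log2 fold change of 0.31 had a 95% interval of -0.04 to 0.66 and did not pass (edgeR adjusted p = 0.204). Thus a moderate increase is within the interval and a decrease like that of Car4 is not. The mean log2 CPM differed by 0.49 inside letters B to M and by 0.08 inside O to S.

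Tbx2, a T-box transcription factor that mostly acts as a repressor, lies on chromosome 11 (85832551 to 85841948, plus strand) and stood at 109 to 168 CPM in normoxia and 77.5 to 137 CPM in hyperoxia. In hyperoxia 5 of 6 libraries were below the normoxic median of 133 CPM. The log2 fold change was -0.32 (95% interval -0.63 to -0.01) and the adjusted p was 0.136 (edgeR). Fitted with limma on the deposited log values it passed at -0.40 (adjusted p = 0.0429), and so it did where only genes with at least 10 counts in every library were kept (-0.39, edgeR adjusted p = 0.0391).
Nrp2 encodes neuropilin-2, a co-receptor of class 3 semaphorins and of VEGF-C that is also found on lymphatic endothelium. The gene (chromosome 1, 62703285 to 62818695, plus strand) ranged from 61.2 to 78.9 CPM in normoxia and from 47.7 to 77.6 CPM in hyperoxia. The log2 fold change of -0.15 had a 95% interval of -0.44 to 0.15 (edgeR adjusted p = 0.492), the narrowest of the members that did not pass. The mean log2 CPM differed by -0.35 inside letters B to M and by -0.03 inside O to S. Letters B to M hold hyperoxia replicates 1 and 3, the 2 lowest hyperoxic libraries for Nrp2 and for 19.4% of all genes tested. The counts of Nrp2 are uncertain in so far as the gene overlaps 2 other annotated genes.
Chst1 encodes a sulfotransferase that adds sulfate to galactose of keratan sulfate and related glycans. The gene (chromosome 2, 92599707 to 92615250, plus strand) was at 32.6 to 65.4 CPM in normoxia, and in hyperoxia it ranged from 11.8 CPM in replicate 3 to 96.0 CPM in replicate 1, the remaining 4 being at 31.3 to 37.4 CPM. Its coefficient of variation among hyperoxic libraries was 70.1%, against 25.7% in normoxia, and the log2 fold change of -0.21 had the widest interval of the set (-0.92 to 0.51, edgeR adjusted p = 0.705). The value was -0.63 without hyperoxia replicate 1 and 0.02 without hyperoxia replicate 3, neither of which passed.

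The remaining 2 members could not be tested. Rprml, a small intronless gene related to the p53-responsive gene Reprimo, had 0 counts in all 13 libraries, which allows at most 0.661 to 1.87 CPM depending on the depth of the library. Its single annotated transcript ends with a polyadenylation signal (AATAAA or ATTAAA in the last 50 bases), as do transcripts of 77.9% of protein-coding genes. Cyp4b1-ps2 is an unprocessed pseudogene on chromosome 4 and had 1 count in all, in normoxia replicate 2. Reads of a pseudogene can be shared with its parent gene. Cyp4b1 itself averaged 388 ± 101 CPM (SD, n = 7) with normal and 402 ± 224 CPM (SD, n = 6) with high oxygen (log2 fold change 0.05, edgeR adjusted p = 0.944), a sign that differed between settings.

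Members were also compared inside each library, where no scaling enters. Prx was the only member called higher, and Emcn, which did not pass, is set beside Car4 as well. The log2 ratio of Prx to Car4 counts was between -0.07 and 0.39 in normoxia and between 1.41 and 3.13 in hyperoxia. That of Emcn to Car4 was between -0.76 and 0.23 in normoxia and between 0.43 and 2.42 in hyperoxia, so that these groups did not overlap either. Prx over Clec1a went from at most -0.92 to at least -0.03. By contrast, Car4 over Fibin (0.21 to 1.39 against 0.59 to 2.61) and Car4 over Clec1a (-2.66 to -0.89 against -2.97 to -0.79) overlapped between the groups. These pairs were chosen after their values were seen and carry no test.

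**Figure D2:**
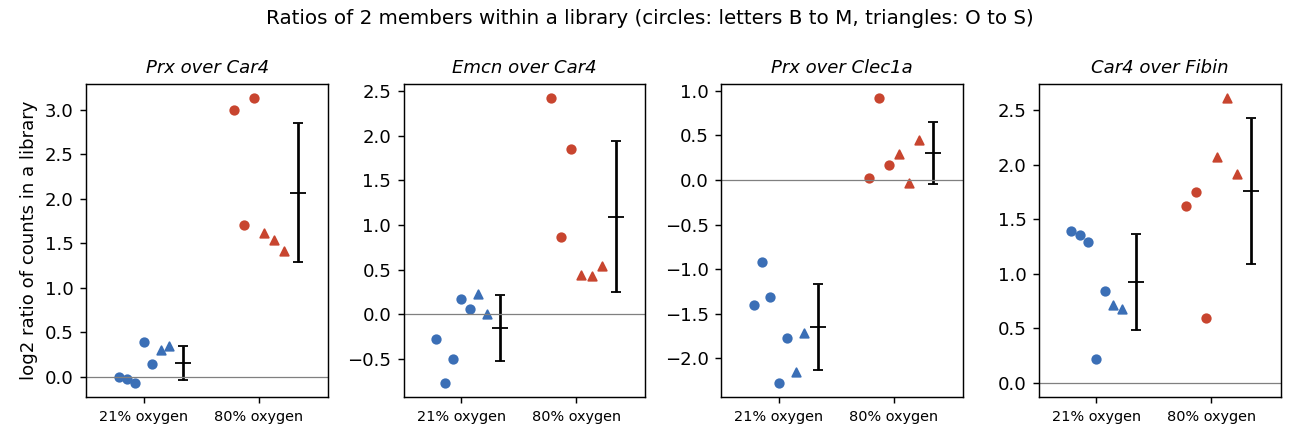
Log2 ratio of the counts of 2 members in the same library (vertical axis, with 0.5 added to each count) at 21% and 80% oxygen, with the mean and SD beside the points. Circles are letters B to M and triangles O to S. Prx over Car4, Emcn over Car4 and Prx over Clec1a are higher in all 6 hyperoxic libraries than in the 7 normoxic ones, whereas Car4 over Fibin overlaps.

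The members also differed from each other in how they varied among libraries of the same group. Once group means were removed, the correlation of log2 CPM over the 13 libraries exceeded 0.5 in 3 of 28 pairs, namely Car4 with Nrp2 (0.61), Prx with Emcn (0.54) and Tbx2 with Clec1a (0.51). It was under -0.5 in 4 pairs, including Car4 with Clec1a (-0.52) and Fibin with Chst1 (-0.56). The genes whose deviations were most like those of Car4 were Slc25a14 (r = 0.97), Antxr1 (0.97), Adamtsl4 (0.96), Eef1akmt1 (0.96) and Art4 (0.95), none of which is on a list of endothelial genes used here. Only 3 of the 10 nearest genes were still among the 10 nearest without hyperoxia replicate 3, and 4 without replicate 1. These values are descriptions over 13 libraries, and each pair of genes was read from the same libraries, with the depth of each library entering both.

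Of 6 other aerocyte genes, all tested, 1 was lower and 1 higher, where 10.8% and 11.8% of all genes were. The count of lower genes was 3 without hyperoxia replicate 1 and 2 without hyperoxia replicate 2. Ednrb, the type B endothelin receptor, averaged 62.4 ± 10.8 CPM (SD, n = 7) and fell to 16.5 ± 7.17 CPM (SD, n = 6), the groups being apart (log2 fold change -1.89 ± 0.28 SE, edgeR adjusted p = 2.2e-04). Apln, the apelin ligand by which aerocytes signal to general capillary cells, rose from 23.4 ± 5.49 to 67.3 ± 24.3 CPM (log2 fold change 1.52, edgeR adjusted p = 2.8e-04), and Kitl, the KIT ligand, was at 266 and 310 CPM (0.22, adjusted p = 0.364). Kdr, the main VEGF receptor, was at 566 and 445 CPM and missed the threshold (log2 fold change -0.35, edgeR adjusted p = 0.0781). It was past the threshold under 5 alternative settings. Pmp22, a tetraspan membrane protein, stood at 265 CPM in normoxia and at 35.4 to 251 CPM in hyperoxia, the lowest again being replicate 1 (log2 fold change -0.74, edgeR adjusted p = 0.0933). It passed without that library (-0.52, edgeR adjusted p = 0.0358) and without hyperoxia replicate 2 (-0.90, edgeR adjusted p = 0.0447).

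**Figure D3:**
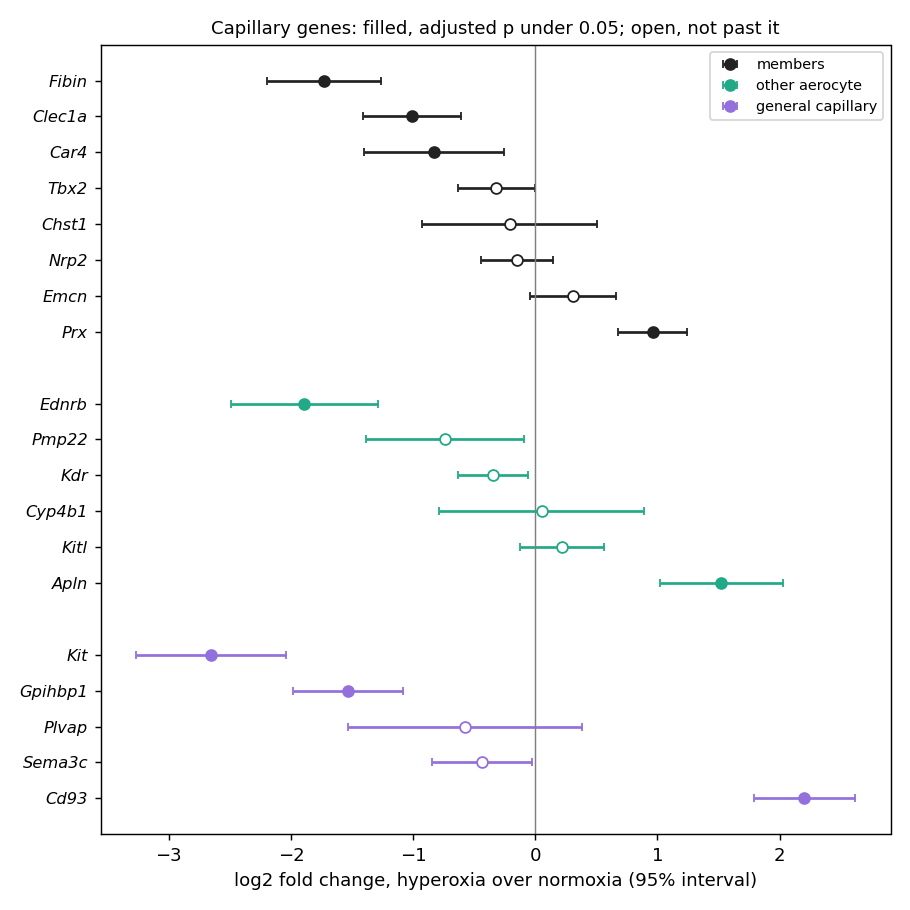
Log2 fold change of hyperoxia over normoxia (horizontal axis) with its 95% interval for the 8 tested members, 6 other aerocyte genes and 5 general capillary genes. Filled points passed an edgeR adjusted p of 0.05 and open points did not. Each list holds genes on both sides of 0, from Fibin at -1.73 to Prx at 0.96 among the members. Aplnr is left out because its hyperoxic counts were at or under the floor.

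Markers of the neighbouring capillary cell type also went both ways. Of 7 general capillary genes 6 were tested. Among these 3 were lower and 1 was higher, where 10.8% and 11.8% of all genes were. Kit, the receptor of KIT ligand, averaged 76.4 and 12.4 CPM with normal and high oxygen (log2 fold change -2.65), and Gpihbp1, which anchors lipoprotein lipase to the capillary wall, at 95.3 and 32.8 CPM (-1.53). Aplnr, the apelin receptor, had 18 to 64 counts in each normoxic library and 0 to 2 in each hyperoxic library. Cd93, a lectin-like receptor of endothelium and myeloid cells, was the higher one, at 755 and 3478 CPM (2.20). Of 22 pan-endothelial genes 21 were tested, with 9 lower and 5 higher, where 10.8% and 11.8% of all genes were. Their median log2 fold change was -0.56, beside -0.03 for all genes tested. The junction gene Cdh5 differed little between groups, at 219 and 249 CPM (0.18, edgeR adjusted p = 0.307), whereas Calcrl (-1.85) and Ptprb (-1.16) were lower and Mmrn2 (2.00) and S1pr1 (1.51) higher.
To place the members against the endothelium as a whole, libraries were also scaled to the summed counts of the pan-endothelial list. This moved the median of all genes from -0.03 to 0.27. On this scale Fibin (-1.43), Clec1a (-0.78) and Prx (1.25) still passed, Car4 did not (-0.51, edgeR adjusted p = 0.204), and Emcn was at 0.59 with an adjusted p of 0.0531 (edgeR). As the pan-endothelial genes went both ways themselves, the scale depends on which of them are summed.

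**Figure D4:**
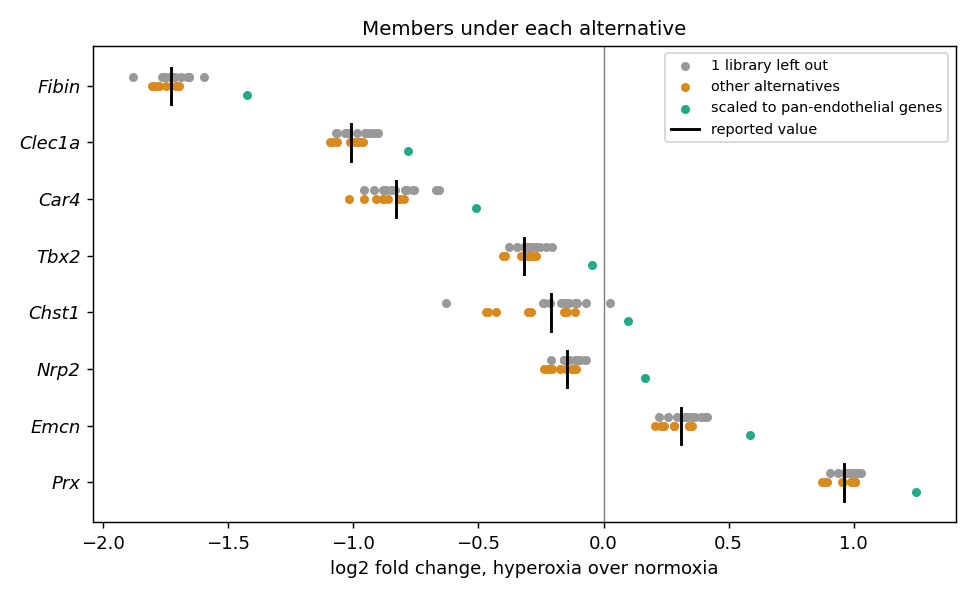
Log2 fold change of each member (horizontal axis) as reported (black line), with 1 library left out (grey), under the other alternatives (orange) and scaled to the pan-endothelial genes (green). Fibin, Clec1a and Car4 stay below 0 and Emcn and Prx above 0 throughout, while Chst1 crosses 0. Nrp2 is above 0 under the pan-endothelial scaling alone, which also moves the median of all genes to 0.27.

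Relatives and partners of the members gave a further view. Among 13 paralogs and related genes, 5 were lower and none higher, where 10.8% and 11.8% of all genes were. The list was chosen with earlier results of these data known, so its count is a description. Nrp1, which codes for the other neuropilin, went from 1222 to 581 CPM (-1.07, edgeR adjusted p = 0.00105), while Nrp2 did not pass. The others with the smallest p were the sulfotransferase Chst3 (-1.36), the T-box factor Tbx3 (-0.72) and Car8 (-0.67), a carbonic anhydrase relative. Whether Nrp1 and Nrp2 differ in response was not tested. Of 15 listed class 3 semaphorins, VEGF ligands, VEGF receptors and plexins, 1 was lower and 3 were higher. The semaphorin Sema3g fell (-1.29) and Sema3b rose (0.63), as did the plexins Plxna2 (1.61) and Plxna4 (0.91).

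Several members are also made by other cells, whose marker lists were counted in the same way. Over all genes tested 10.8% were lower and 11.8% higher, and a list of so few genes cannot be told from those shares by 1 call. The fibroblast list, which bears on Tbx2, had 2 lower and 1 higher of 8 tested, with a summed level of 1107 to 1610 CPM in normoxia and 1198 to 1819 CPM in hyperoxia. Smooth muscle and pericyte genes, with 0 lower and 2 higher of 6, went from 262 to 319 CPM in normoxia to between 254 and 515 CPM in hyperoxia. For Nrp2, the lymphatic list had 1 higher and 0 lower of 6. That gene was Lyve1, at 625 and 5508 CPM, which macrophages also make, whereas the defining gene Prox1 was at 4.57 and 6.20 CPM (0.47, edgeR adjusted p = 0.400). For Emcn, the venous list had 2 lower, Slc6a2 and Vwf, and 1 higher, Selp, of 4 tested, and Ackr1 was near 0. The arterial list had 3 lower of 5 and the macrophage list, which bears on Clec1a, 1 lower and 1 higher of 5 at summed levels of 258 to 303 and 160 to 644 CPM. Alveolar type 1 genes held 1 lower and 1 higher of 7, alveolar type 2 genes 4 lower of 5, and club cell genes, which bear on Cyp4b1, 2 lower of 3. The part of these cells in the members' changes was not tested.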

How the data were processed

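RNA from whole lung was sequenced as Quant-seq 3' libraries. Per the methods and processing notes, the authors pseudoaligned reads with kallisto in BioJupies (mm10) and used limma 3.54.2 for statistics. They deposited raw counts per gene symbol, used here, and log10 values of CPM plus 1, which are per the recomputation library-size scaled (largest difference 4.4e-16). The annotation behind the symbols is not given in the sources used here. All 13 libraries were mapped by their labels, and 0 columns were left over. The labels do not state that samples are separate mice, so p-values measure the spread between these samples, which may be technical.

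The test on counts was the quasi-likelihood F test of edgeR 4.0.16 (R 4.3.3) after TMM scaling and filterByExpr, with no covariate and all genes adjusted together. The log2 CPM values have a prior count of 2. Standard errors were derived from the F statistic. The paper names CPM and limma, which were run as alternatives, beside limma-voom (limma 3.58.1), DESeq2 1.42.0, other scalings and filters, the letter set as a covariate, a replicate block and each library left out. Libraries of a group differed by more than sampling noise in all 36 pairs (chi-square per gene at least 3.9). The fit was tested on simulated data, where it recovered 53% of 2-fold and 97% of 3-fold changes, and 3.85% of its calls were false. Floors cover counting error only. Coordinates are GRCm38 (GENCODE M21), matched by symbol, and promoters RefSeq.

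The members and gene lists were chosen with earlier results of these data known. Named genes are all members, all other aerocyte genes, up to 4 per further list by smallest p or as defining markers, and the 5 nearest to Car4. Cdh5 was named beyond this limit, after its values were seen. The pairs of genes in the ratios were chosen after their values were seen. Some genes of the Schwann cell list are not reported here.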

Additional observations from a re-analysis of the deposited data

Results flagged for a closer look

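In 32 sets of values (the 8 tested members, 6 other aerocyte genes, the total count and the mean correlation, each in both groups) the sample farthest out was compared with Dixon's 95% critical ratio, and 4 lay beyond it where chance gives about 2. Emcn was highest in normoxia replicate 5 at 110 CPM (ratio 0.623). Chst1 was highest in hyperoxia replicate 1 at 96.0 CPM (ratio 0.696), and leaving it out gave a log2 fold change of -0.63. Normoxia replicate 5 had the lowest total count, 1607111 (ratio 0.612). Hyperoxia replicate 1 had the lowest mean correlation with the other libraries, 0.779 (ratio 0.763).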

How the results depend on the processing

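Of 184 values for the 8 members under the 23 alternatives, 170 kept their direction and their side of the threshold, and Fibin, Clec1a and Prx did so in each. Car4 lost its call under 9 alternatives, with adjusted p up to 0.204, and its log2 fold change was -1.02 to -0.51 over all 23. The 9 were the pan-endothelial scaling, the letter set, the replicate block (-0.96, edgeR adjusted p = 0.0908) and the fits without normoxia replicates 1, 2, 3 or 5 or hyperoxia replicates 3 or 4. The replicate numbers name samples and do not pair them (same-numbered deviations correlated at -0.33 to 0.27, and 0 of 6 libraries correlated best with their own number). The replicate block lowered the counts to 626 genes lower and 718 higher, and to 5 lower and 3 higher pan-endothelial genes. Scaling to the pan-endothelial list gave 549 genes lower and 2504 higher, 4 pan-endothelial genes lower, 0 members past -1.5, a member median of 0.027, Chst1 at 0.10 and Nrp2 at 0.16, with the median of all genes at 0.27. The share of higher genes among those called was 52.2% here, 42.8% with library size alone, 38.8% with limma on the deposited values and 82.0% with the pan-endothelial scaling. The member median was -0.44 with limma on the deposited values and -0.50 to -0.17 with 1 library left out. At a threshold of -1, 2 members were counted. The other aerocyte genes had 2 lower with library size alone, limma-voom and limma, and 1 to 3 with 1 library left out. Of the 10 genes nearest to Car4, 3 to 9 remained with 1 library left out. Chst1 was at -0.63 to 0.025 with 1 library left out. Cyp4b1 turned to -0.0027 with library size alone, -0.29 with limma-voom, -0.38 with limma and -0.20 with the replicate block, and ranged from -0.17 to 0.31 with 1 library left out. The cause of these moves was not tested. With depths from 1607111 counts, changes of Rprml and Cyp4b1-ps2 were not detectable.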
